A study of Caenorhabditis elegans with 9 samples.

Results

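VA motor neurons of Caenorhabditis elegans were set against whole worms of the same larval stage, across every gene of the authors' table for this comparison. The members are all 2349 rows of that table and 6 of the 9 libraries of the series. One group holds 3 libraries (replicates 1 to 3) of wild type VA neurons, taken from second larval stage (L2) animals of a strain that carries 2 reporters, pUnc-4::mCherry and pUnc-4C::GFP. The reporters label neurons in red and in green from different parts of the unc-4 promoter, and larvae were dissociated and the red-only cells collected into Trizol by fluorescence-activated sorting, per the labels' protocols. That gate takes AVF interneurons as well as VA neurons. The other group holds 3 libraries (replicates 2 to 4) of the N2 strain, the standard wild type, made from entire L2 worms frozen over liquid nitrogen without sorting. Animals of both groups came from hatchlings synchronised with hypochlorite, and cDNA was made with a SMART-Seq kit for very small amounts of RNA. Cell content, strain and handling all differ between the groups and cannot be told apart here. The labels do not say whether the libraries come from separate cultures, so the spread between them may be technical.

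The VA class belongs to the excitatory motor neurons of the ventral cord, which release acetylcholine. These cells drive contraction of ventral body muscle during backward crawling and receive input from the AVA command interneurons through gap junctions and chemical synapses. In them the homeodomain factor UNC-4 represses genes of the sister VB class, UNC-3 switches on cholinergic motor neuron genes, and BNC-1 keeps genes of other motor neuron classes off. Large numbers of neuropeptides, which are cut from precursors, amidated and released from dense core vesicles, act beside acetylcholine in C. elegans neurons.

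Every gene of the table was selected by the authors on these same libraries as higher in VA neurons, and "listed" means present in it. The lowest fold in it was 2.25, and every false discovery rate was under 0.05. Genes lower in VA neurons are not analysed here. Values are TPM (transcripts scaled to a fixed total), which count each transcript per length and per library total, so levels can be compared between genes, and depth is unknown. A ratio below is the mean TPM of VA neurons over the mean TPM of whole worms, and TPM values stand in the order of the replicate numbers. In bulk RNA, a low level in whole worms can come from few expressing cells or from little RNA in each, and these cannot be told apart. Over listed genes, log2(TPM + 1) values of VA libraries correlated at Pearson's r of 0.850 to 0.934 among themselves and those of whole-worm libraries at 0.957 to 0.974. VA replicate 1 held the highest of the VA values for 1477 genes. The lowest was in VA replicate 3 for 1246 genes and in VA replicate 2 for 978. VA replicate 2 stood apart by its heat shock transcripts, which made up 32.7% of its TPM against 5.26% in replicate 1 and 1.92% in replicate 3, so the shares of TPM in the text are also given with the 15 listed genes of the heat shock list left out of every total.

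Listed genes, chosen as higher in VA neurons, filled a much larger share of VA libraries than of whole-worm libraries. They took 49.8, 58.5 and 42.7% of TPM in VA libraries, with a mean of 50.3% ± 7.95 (SD, n = 3), against 5.06, 4.41 and 4.64% in whole worms, with a mean of 4.70% ± 0.332 (n = 3). With the heat shock list left out, the shares were 46.98, 38.4 and 41.5% in VA libraries and 4.75, 4.29 and 4.53% in whole worms. Over listed genes the median of the mean level in VA neurons was 32.7 TPM. The median ratio was 5.18, with genes at 0 in whole worms left out. On log2(TPM + 1), limma's test called 2214 of the 2328 genes tested (95.1%), those averaging 1 TPM or more in a group, at an adjusted p under 0.05, all higher in VA neurons. In 2158 of the 2349 genes (91.9%) every VA library lay above every whole-worm library. Both shares describe genes chosen on the same libraries and are the background against which members are read below. A list called in full, or with no overlap between groups, is near these shares and is not by itself a trait of that list.

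**Figure D1:**
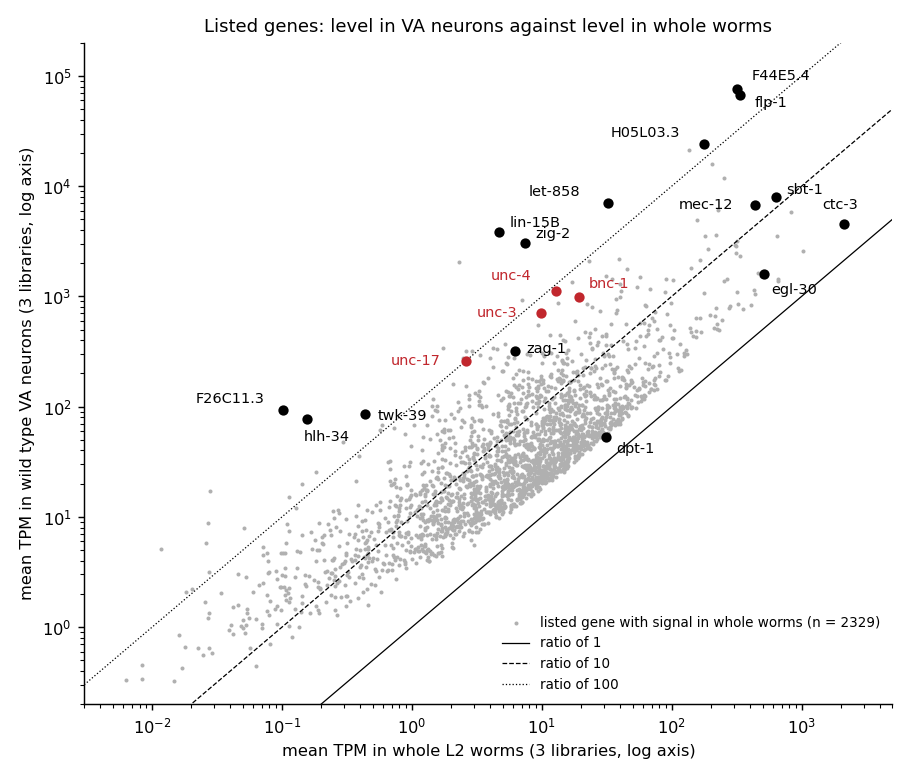
Mean TPM in VA neurons (vertical, log axis) against mean TPM in whole worms (horizontal, log axis) for the 2329 listed genes with signal in whole worms, with lines at ratios of 1, 10 and 100, the VA markers in red and other genes of the text in black. All points lie above the line at 1, and unc-4 and unc-17 lie near the line at 100.

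The 4 marker genes of VA neurons stood high on both scales, by level and by ratio. Transcripts of unc-4, on chromosome II at 9897751 to 9900376 (WBcel235), measured 1311, 936 and 1129 TPM in VA neurons and 14.6, 12.4 and 11.28 TPM in whole worms. The cells were sorted on reporters built from the unc-4 promoter, so this level does not check their identity independently. The zinc finger gene bnc-1 (chromosome V, 12275570 to 12277046) measured 1180.4, 874 and 875 TPM in VA neurons and 14.3, 17.8 and 26.4 TPM in whole worms. For unc-3 (chromosome X, 14773538 to 14783568) the values were 946, 693 and 471 TPM in VA neurons and 12.5, 7.33 and 9.85 TPM in whole worms. The vesicular acetylcholine transporter gene unc-17 (chromosome IV, 3618259 to 3624699) had 253, 167 and 357 TPM in VA neurons and 2.50, 1.80 and 3.58 TPM in whole worms. No VA library came near a whole-worm library for any of the 4. Ratios were 98.6 for unc-17, 88.1 for unc-4, 71.01 for unc-3 and 50.1 for bnc-1. By mean TPM in VA neurons, unc-4 ranked 49, bnc-1 56, unc-3 74 and unc-17 185 among listed genes. On the log2(TPM + 1) scale the differences were 6.35 ± 0.32 for unc-4, 5.98 ± 0.36 for unc-3, 5.61 ± 0.35 for bnc-1 and 6.13 ± 0.37 for unc-17 (SE, n = 3 libraries a group), and the largest adjusted p among them by limma was 4.3e-07. The loci of unc-17 and cha-1 overlap on the same strand, so the counting may have split their reads between them, and the values of both are uncertain.

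Abundance in VA neurons was steeply graded. Only 54 genes averaged 1000 TPM or more, and they took 29.2, 43.5 and 29.004% of all TPM in VA libraries, against 1.71, 1.42 and 1.498% in whole worms. With the heat shock list left out, the 47 of them that remained took 25.4, 16.9 and 27.7% in VA libraries and 1.42, 1.32 and 1.398% in whole worms. A further 432 genes lay between 100 and 1000 TPM, 1408 between 10 and 100, 434 between 1 and 10 and 21 below 1 TPM. By their mean in whole worms, 2 of the 2349 genes reached 1000 TPM. The 10 genes of highest mean took 17.9, 36.2 and 19.3% of TPM in VA libraries and 0.358, 0.241 and 0.226% in whole worms, a mean of 24.5% in VA libraries. With the heat shock list left out, the 10 highest of the remaining genes took 16.3, 9.79 and 19.9% in VA libraries and 0.479, 0.481 and 0.531% in whole worms, a mean of 15.3% in VA libraries. The 10 highest of all listed genes are a heat shock gene of the Hsp70 family and 3 of the small heat shock family, 2 neuropeptide precursors, a chaperone of peptide processing, an alpha tubulin, let-858 and Y44A6D.2.

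The tubulin was mec-12, an alpha-tubulin gene best known from touch neurons, with 9207, 4067 and 6851 TPM in VA neurons against 520.0, 438 and 354 TPM in whole worms. Y44A6D.2, whose current symbol is tpan-1, measured 7471, 3924 and 6898 TPM in VA neurons against 242, 199.7 and 236 TPM in whole worms. F43C9.2, a gene with a sequence name only, measured 6052, 2709 and 5977 TPM in VA neurons against 188, 146 and 133 TPM in whole worms. These 3 genes shared an order among VA libraries, with replicate 2 the lowest and no overlap with whole worms. Y43F8B.2 differed in that replicate 2 was its highest, with 3393, 4543 and 2694 TPM in VA neurons against 161, 193 and 188 TPM in whole worms. Genes known by a sequence name only made up 847 of the 2349 listed genes. The highest of them was F44E5.4, the Hsp70-family gene.

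Mean levels in VA neurons ran between 0.325 and 75842 TPM, and ratios between 1.70 and 926. In all, 688 genes had a ratio of at least 10, of which 20 were at 0 TPM in all 3 whole-worm libraries. Of the others, 30 had a ratio of 100 or more, 142 lay between 30 and 100 and 496 between 10 and 30. A further 1039 genes lay between 3 and 10, and 622 below 3. The median ratio was 15.6 among genes of 1000 TPM or more in VA neurons, 8.81 between 100 and 1000 TPM, 3.90 between 10 and 100, 7.36 between 1 and 10 and 22.3 below 1 TPM, with genes at 0 in whole worms left out. Among genes of 10 TPM or more, the median ratio was thus higher in each higher class of level. Such a rise is partly built in, since the level in VA neurons is also the numerator of the ratio. Among the 100 genes highest by level and the 100 highest by ratio, 20 were shared, unc-4, unc-3 and bnc-1 among them. Of the 486 genes with at least 100 TPM in VA neurons, 76 had a ratio below 3 and 72 a ratio of 30 or more.

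Several of the highest ratios belonged to genes that were almost silent in whole worms. F26C11.3 (chromosome II, 9903057 to 9915099) measured 148, 83.5 and 48.8 TPM in VA neurons and 0.113, 0.1003 and 0.0894 TPM in whole worms, a ratio of 926. It is the next protein-coding gene upstream of unc-4, whose promoter drives both reporters of the sorted strain, and a contribution of reporter DNA to its reads was not tested. The neighbours lin-15B and lin-15A (chromosome X, 15726123 to 15732025 and 15731968 to 15735365), which overlap on 1 strand and encode factors that restrain vulval fates, followed. For lin-15B the values were 4666, 5217 and 1576 TPM in VA neurons and 5.60, 4.303 and 4.01 TPM in whole worms, and for lin-15A 2332, 2877 and 914 TPM in VA neurons and 3.50, 2.47 and 0.902 TPM in whole worms. The essential splicing gene let-858 (chromosome II, 11022370 to 11027906) measured 10343, 7773 and 2809 TPM in VA neurons and 34.5, 33.7 and 28.7 TPM in whole worms, a ratio of 216. In all 4 genes VA replicate 3 was the lowest VA library and still far above whole worms. As background, lin-15 rescuing DNA and the let-858 3' end are in wide use in C. elegans transgenes. The labels name the 2 reporters and no other part of the transgene, and whether transgene sequence adds to these levels was not tested.

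Other high ratios belonged to genes of several kinds. The gene zig-2, which encodes a small secreted protein with immunoglobulin domains, measured 4951, 1177 and 2991 TPM in VA neurons and 6.85, 6.41 and 8.99 TPM in whole worms, a ratio of 410.0. The two-pore potassium channel gene twk-39 had 102.7, 73.1 and 78.6 TPM in VA neurons and 0.696, 0.508 and 0.0942 TPM in whole worms, a ratio of 196. Its 3 VA libraries lay close together, while its whole-worm values were all below 1 TPM. For hlh-34, a basic helix-loop-helix gene, VA libraries gave 102.8, 13.7 and 114 TPM and whole worms 0.0845, 0.150 and 0.233 TPM, with VA replicate 2 far below the other two. C54G7.1 had 46.7, 54.7 and 41.2 TPM in VA neurons and 0.213, 0.376 and 0.293 TPM in whole worms. The gene ttr-52, which encodes a transthyretin-like protein that bridges dying cells to the cells that engulf them, had 292, 203 and 334 TPM in VA neurons and 2.89, 0.682 and 3.81 TPM in whole worms. Of the 20 genes at 0 in every whole-worm library, only C17D12.5 averaged over 10 TPM in VA neurons, with 13.95, 19.7 and 4.80 TPM. It overlaps the sperm gene spe-9 on the other strand, which had 26.8, 26.98 and 5.91 TPM in VA neurons and 0.247, 0.146 and 0.0378 TPM in whole worms. The counting is not stated to use strand, so reads of this pair cannot be told apart.

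**Figure D2:**
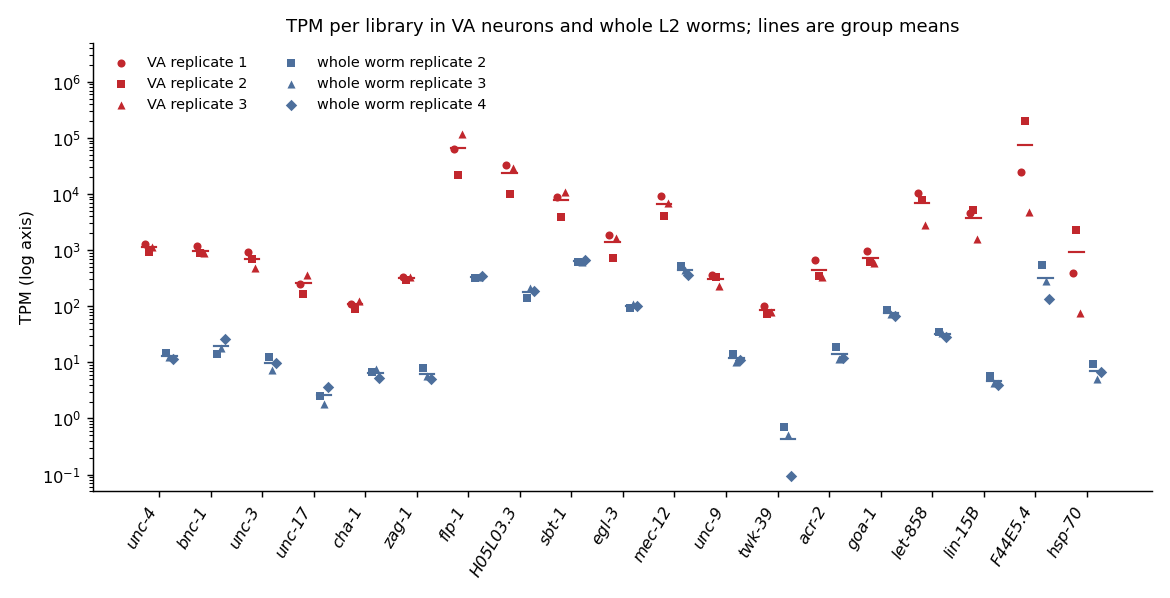
TPM (log axis) of 19 genes in each VA library (red, left of each pair) and each whole-worm library (blue, right), with symbols for replicate numbers and lines for group means. The 3 VA libraries lie together for unc-4, bnc-1 and zag-1 and spread by over a factor of 10 for F44E5.4 and hsp-70.

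Cholinergic genes were listed in 5 of 9 cases, all called by limma, with a median ratio of 16.5 against 5.18 over all listed genes. Besides unc-17 they were the choline acetyltransferase gene cha-1, the choline transporter gene cho-1 and the acetylcholinesterase genes ace-3 and ace-2. The cha-1 values were 109.8, 90.5 and 123 TPM in VA neurons and 6.64, 7.74 and 5.23 TPM in whole worms. The cho-1 values were 113, 82.6 and 200.3 TPM in VA neurons and 3.26, 2.58 and 3.27 TPM in whole worms. In both, and in unc-17, replicate 3 was the highest VA library, whereas most listed genes were lowest there. The esterase ace-3 measured 75.8, 43.3 and 27.3 TPM in VA neurons and 5.20, 3.63 and 4.64 TPM in whole worms, and ace-2 stayed at or below 2.56 TPM in VA neurons.

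Transcription factors of motor neurons were listed in 15 of 25 cases, 13 of them called by limma, with a median ratio of 11.5. The zinc finger homeobox gene zag-1, a regulator of neuronal differentiation, was among the steadiest abundant genes of the table with 337, 289 and 330.4 TPM in VA neurons and 7.93, 5.79 and 5.04 TPM in whole worms, a ratio of 50.97. The Hox genes mab-5 and lin-39, which pattern the mid-body ventral cord, measured 157, 130.4 and 77.0 TPM and 99.9, 65.6 and 74.6 TPM in VA neurons, with ratios of 12.7 and 7.10. The LIM homeobox gene lin-11 measured 96.1, 38.9 and 41.7 TPM in VA neurons, a ratio of 9.10. The corepressor gene unc-37, partner of unc-4, had 73.4, 68.4 and 40.3 TPM in VA neurons against 24.6, 18.7 and 16.6 TPM in whole worms. In each of these the VA libraries stayed above the whole-worm libraries. The 2 genes that limma did not call were unc-55 and ast-1, and ast-1 had 152, 18.7 and 91.5 TPM in VA neurons against 21.9, 29.4 and 40.2 TPM in whole worms. In unc-55, which marks other ventral cord classes, VA libraries had 17.003, 33.5 and 0.0256 TPM against 1.34, 1.05 and 2.63 TPM in whole worms, so the groups overlapped.

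Across wider factor families, homeobox genes were listed in 25 of 100 cases, nuclear hormone receptor genes in 16 of 274 and basic helix-loop-helix genes in 5 of 39, against 11.6% of all annotated protein-coding genes. The Meis-type homeobox gene unc-62 was the second most abundant homeobox gene after unc-4, with 611, 318 and 575 TPM in VA neurons and 96.3, 68.5 and 66.0 TPM in whole worms. The gene ceh-5 combined a low level with a high ratio, with 11.1, 9.18 and 9.98 TPM in VA neurons and 0.301, 0.534 and 0.277 TPM in whole worms, a ratio of 27.2. Most nuclear hormone receptor genes of the annotation were not listed. Of the 16 that were, 11 were called by limma. The most abundant was nhr-1, with 377, 167 and 186 TPM in VA neurons against 42.2, 40.5 and 17.4 TPM in whole worms.

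Neuropeptide precursors took more TPM than any other list in VA replicates 1 and 3, and in replicate 2 came second to the heat shock genes. Of 151 annotated precursor genes 38 were listed, 36 of them called by limma, with a median ratio of 9.67. Their summed level was 11.5, 4.06 and 16.9% of TPM in VA libraries and 0.178, 0.201 and 0.220% in whole worms. With the heat shock list left out it was 12.1, 6.03 and 17.2% in VA libraries and 0.179, 0.201 and 0.221% in whole worms. VA replicate 2 was the lowest VA library in 30 of the 38, against 978 of all 2349 listed genes. The FMRFamide-like precursor gene flp-1 (chromosome IV, 9144705 to 9146128) led with 62369, 21477 and 118785 TPM in VA neurons and 323, 333 and 345 TPM in whole worms. Its ratio was 202, and 126 without VA replicate 3. H05L03.3, now named nlp-49 (chromosome X, 5904653 to 5905345), had 32832, 9946 and 29537 TPM in VA neurons and 138, 213 and 184 TPM in whole worms, a ratio of 135. The whole-worm values of both genes were narrow and the VA values were not. The third precursor by level, nlp-21, measured 3771, 2703 and 4235 TPM in VA neurons and 197, 216 and 243 TPM in whole worms. The precursor pdf-1, whose peptides act on arousal and locomotion, ranged widely with 1437, 319.8 and 4713 TPM in VA neurons against 135, 193 and 170.0 TPM in whole worms. By ratio, nlp-19 followed flp-1 and nlp-49 at 115.6, with 121, 19.3 and 63.1 TPM in VA neurons and 0, 0.736 and 1.02 TPM in whole worms, and its ratio was 70.4 without VA replicate 1 and 184 without whole-worm replicate 4. After it came nlp-42, now mihp-2, with 473, 94.5 and 270.2 TPM in VA neurons and 6.05, 3.76 and 6.54 TPM in whole worms, a ratio of 51.2, or 33.5 without VA replicate 1.

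Genes that process and pack peptides were high at more moderate ratios. Of 25 such genes 15 were listed, all called by limma, with a median ratio of 7.95, and they took 2.49, 1.04 and 2.39% of TPM in VA libraries against 0.204, 0.242 and 0.210% in whole worms. With the heat shock list left out they took 2.63, 1.55 and 2.43% in VA libraries and 0.205, 0.243 and 0.210% in whole worms. The gene sbt-1, encoding the 7B2 chaperone of the EGL-3 convertase, had 8912, 3976 and 10846 TPM in VA neurons and 604, 624 and 667 TPM in whole worms. The convertase gene egl-3 itself, which cuts precursors, had 1845, 737 and 1635 TPM in VA neurons and 93.9, 109 and 102 TPM in whole worms. The carboxypeptidase gene egl-21, which trims the cut ends, had 4296, 1592 and 3555 TPM in VA neurons and 284, 364 and 307 TPM in whole worms. Amidation uses the enzymes of pghm-1 and pgal-1. The hydroxylating enzyme gene pghm-1 had 2985, 1148 and 3250.0 TPM in VA neurons and 301, 349.9 and 278 TPM in whole worms, and the lyase gene pgal-1 8995, 3456 and 4906 TPM in VA neurons and 779, 845 and 864 TPM in whole worms. The lowest VA value among these 5 genes was the 737 TPM of egl-3, and replicate 2 was the lowest VA library in all 5. The release factor gene unc-31, which primes dense core vesicles, was much lower at 14.04, 18.6 and 4.22 TPM in VA neurons but had the highest ratio of the list, 18.5.

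**Figure D3:**
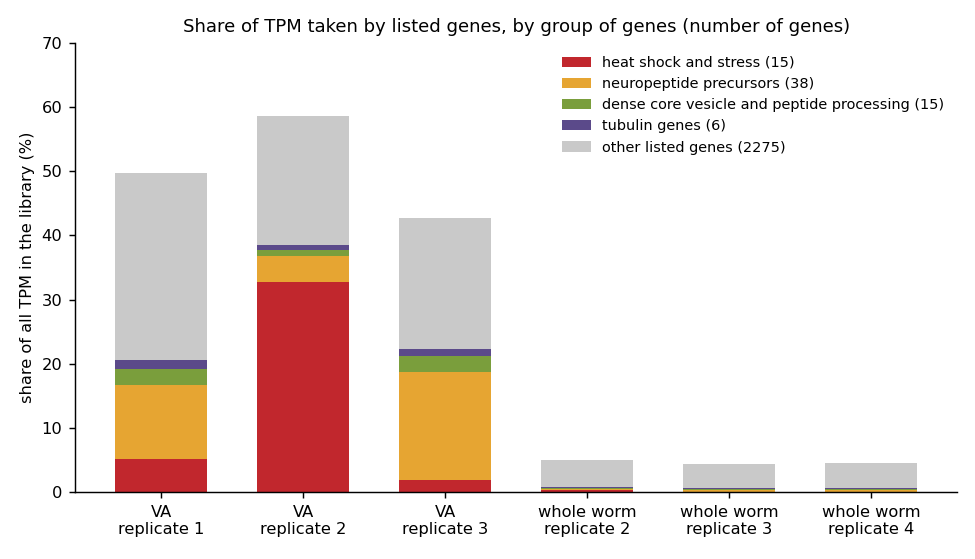
Share of all TPM (%) in each VA library (left) and each whole-worm library (right), split into listed genes of the heat shock, neuropeptide, peptide processing and tubulin lists and all other listed genes. Other listed genes took 29.1, 20.01 and 20.4% in VA libraries and 4.19, 3.71 and 3.95% in whole worms.

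Receptors for peptides were broadly listed at low levels. In total, 59 were listed (54.6% of those annotated) and 58 called by limma, with a median ratio of 7.45 and a median level of 15.97 TPM in VA neurons, below the 32.7 TPM of all listed genes. Only 2 reached 100 TPM. One was seb-3, a receptor of the corticotropin-releasing type on which NLP-49 peptides are known to act, with 233, 163 and 146 TPM in VA neurons and 7.48, 5.56 and 4.91 TPM in whole worms. The other was npr-5, with 142, 88.8 and 142 TPM in VA neurons and 11.6, 8.33 and 6.95 TPM in whole worms. Neither overlapped between the groups. The highest ratio belonged to frpr-14, with 70.8, 23.9 and 97.4 TPM in VA neurons and 1.13, 0.553 and 0.503 TPM in whole worms. For gnrr-1, of the gonadotropin-releasing hormone receptor class, the values were 88.4, 56.6 and 59.4 TPM in VA neurons and 1.76, 0.781 and 1.37 TPM in whole worms. Of the 7 gnrr genes annotated 6 were listed, a family singled out after its values were seen.

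Genes of synaptic vesicle release were almost completely listed. Of 36 annotated members 33 were listed, with a median ratio of 9.21. All 33 were called by limma, against 95.1% of all listed genes tested. In all 33 every VA library lay above every whole-worm library, against 91.9% of all listed genes. Their levels were moderate, with a median of 108.2 TPM in VA neurons. VA replicate 3 was the lowest VA library in 28 of the 33. The SNAP-25 gene ric-4 led by level with 648, 700.1 and 331 TPM in VA neurons and 42.4, 42.1 and 49.03 TPM in whole worms. Synaptobrevin, from snb-1, followed with 608, 369 and 517 TPM in VA neurons and 122.4, 77.9 and 111 TPM in whole worms. By ratio the kinase gene sad-1, which organises presynaptic sites, led with 407, 306 and 171 TPM in VA neurons and 9.36, 8.19 and 6.85 TPM in whole worms, a ratio of 36.2. The scaffold gene rimb-1 and the complexin gene cpx-1 had ratios of 23.7 and 19.97. Of the synaptotagmins, the calcium sensors of release, snt-4 lay far above the rest with 3436, 1557 and 3681 TPM in VA neurons and 261, 354 and 316 TPM in whole worms. The better known snt-1 measured 300.2, 346 and 142 TPM in VA neurons.

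Tubulins combined high level with uneven ratios. Of 16 annotated tubulin genes 6 were listed, and all 6 were above 100 TPM in VA neurons, with a median ratio of 4.93. Together they took 1.41, 0.714 and 1.08% of TPM in VA libraries and 0.169, 0.140 and 0.141% in whole worms, and with the heat shock list left out 1.49, 1.06 and 1.099% in VA libraries and 0.169, 0.140 and 0.141% in whole worms. Besides mec-12, the widely expressed genes tbb-2 and tba-1 had 1816, 1275 and 1545 TPM and 1296, 904 and 1021 TPM in VA neurons, against 506, 458 and 497 TPM and 207, 143 and 185 TPM in whole worms. The highest tubulin ratio, 23.8, was that of ben-1, the beta-tubulin that makes worms sensitive to benzimidazole drugs, with 200.4, 156 and 92.5 TPM in VA neurons. Tubulin genes resemble each other in sequence, and the authors' counting of shared reads is not given in the sources used here.

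Genes of axonal structure and transport were listed in 20 of 28 cases, all called by limma, with a median ratio of 5.24, close to that of all listed genes. The kinesin cargo adaptor gene unc-14 had the highest level, 672, 519.9 and 242 TPM in VA neurons against 149, 150.0 and 124 TPM in whole worms. The adaptor unc-76, of the FEZ family, had 491, 325 and 280.0 TPM in VA neurons against 41.1, 32.8 and 27.5 TPM in whole worms. Of 82 genes of axon guidance and adhesion 40 were listed, 39 of them called by limma, with a median ratio of 6.10. After zig-2 the most abundant was unc-115, an actin-binding protein of growth cones, with 2306, 1045 and 802 TPM in VA neurons and 289, 298 and 174 TPM in whole worms. The guidance cue netrin, from unc-6, measured 419, 295 and 216 TPM in VA neurons and 11.6, 11.7 and 10.6 TPM in whole worms, a ratio of 27.4. The small immunoglobulin gene oig-5 had 989, 557 and 868 TPM in VA neurons and 26.4, 21.04 and 25.7 TPM in whole worms. Wnt pathway genes were listed in 14 of 33 cases, all called by limma, with a median ratio of 7.72. Among them were the secreted inhibitor sfrp-1 with 501, 284 and 311 TPM in VA neurons and 26.3, 25.7 and 27.2 TPM in whole worms, and the Frizzled receptor gene mig-1 with 304, 192 and 512 TPM in VA neurons and 26.2, 25.9 and 21.4 TPM in whole worms. A second Frizzled gene, lin-17, lay lower at 36.3, 25.3 and 53.4 TPM in VA neurons but had the highest ratio of the list, 15.9.

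Potassium channel genes had the highest median ratio of the lists with at least 20 listed members. Of 79 annotated genes 33 were listed, all called by limma, with a median ratio of 16.7, and 22 of them had a ratio of at least 10. The family of two-pore channels, which set the resting potential, supplied 17 of the 33 by its twk names, with ratios from 5.55 to 196. Their median was 21.6, and this family was singled out after its values were seen. Most abundant was twk-49, with 869.6, 528 and 705 TPM in VA neurons and 40.4, 37.8 and 33.7 TPM in whole worms, which overlaps 2 other listed genes. In twk-40 the values were 397, 238 and 193 TPM in VA neurons and 5.68, 3.41 and 2.98 TPM in whole worms, a ratio of 68.6. In twk-30 they were 277, 309 and 143 TPM in VA neurons and 7.22, 4.999 and 3.90 TPM in whole worms. The related channel gene unc-58 had 387, 347 and 183 TPM in VA neurons and 12.2, 9.16 and 8.78 TPM in whole worms and overlaps another listed gene. No two-pore channel named here overlapped between VA neurons and whole worms.

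Voltage-gated calcium and sodium leak channel genes were listed in 11 of 13 cases, all called by limma and all highest in VA replicate 1, with a median ratio of 9.09. The chaperone gene nlf-1, needed to place the leak channel in axons, had 378, 310.0 and 201 TPM in VA neurons and 14.3, 9.30 and 7.66 TPM in whole worms. The presynaptic calcium channel gene unc-2 had 219, 148 and 71.8 TPM in VA neurons and 12.6, 9.38 and 5.84 TPM in whole worms, and its beta subunit gene ccb-1 324, 270.1 and 191 TPM in VA neurons and 20.8, 15.5 and 15.2 TPM in whole worms. In all 3 the lowest VA library was replicate 3. Innexins, which form gap junctions, were listed in 4 of 25 cases (16%), near the 11.6% of all annotated protein-coding genes. The gap junction gene unc-9, known from coupling of A-class motor neurons to AVA, had 354, 329 and 232 TPM in VA neurons and 14.1, 10.3 and 10.8 TPM in whole worms. Its known partner on the AVA side, unc-7, was also listed but lower, with 23.4, 17.4 and 7.32 TPM in VA neurons and 1.498, 1.05 and 1.21 TPM in whole worms. Degenerin-type sodium channels were listed in 4 of 30 cases (13.3%), also near the share of all genes. They were led by del-1 with 323, 237 and 183 TPM in VA neurons and 6.36, 5.39 and 4.13 TPM in whole worms, a ratio of 46.8.

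Nicotinic-type acetylcholine receptor genes were listed in 10 of 29 cases, all called by limma, with a median ratio of 10.2. The receptor genes acr-2 and acr-12, whose products form a cation channel on cholinergic motor neurons, were the 2 most abundant. Values of acr-2 were 666, 349 and 327 TPM in VA neurons and 18.5, 11.5 and 11.7 TPM in whole worms, and those of acr-12 were 335, 178 and 227 TPM in VA neurons and 13.7, 8.75 and 7.57 TPM in whole worms. Of the other known subunits of that channel, unc-38 measured 201, 131 and 68.4 TPM and unc-63 5.06, 4.79 and 1.73 TPM in VA neurons, so the levels of its subunits differed widely. Ratios of 28.9 and 24.3 belonged to acr-19 and acr-14. Among genes of receptor assembly and clustering, 7 of 16 were listed, and madd-4, a secreted organiser of neuromuscular receptors, had 1012, 854 and 399.7 TPM in VA neurons and 45.6, 35.8 and 31.4 TPM in whole worms.

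Other ligand-gated channels were listed in 28 of 81 cases, 26 called by limma, with a median ratio of 10.8. The GABA receptor subunit gene gab-1 had 184, 119.4 and 156 TPM in VA neurons and 2.83, 2.17 and 2.78 TPM in whole worms, a ratio of 59.1. The gene lgc-35, for a cation channel opened by GABA, had 278, 109 and 93.8 TPM in VA neurons and 2.52, 1.79 and 1.91 TPM in whole worms. Also listed was sol-2, an auxiliary protein of glutamate receptors, with 64.9, 42.5 and 63.1 TPM in VA neurons and 1.35, 0.748 and 0.570 TPM in whole worms. Receptors coupled to G proteins for amines, acetylcholine, GABA and glutamate were listed in 16 of 24 cases, all called by limma, with a median ratio of 9.67. The muscarinic receptor gene gar-2 had 202, 173 and 71.6 TPM in VA neurons and 9.56, 8.60 and 8.65 TPM in whole worms. The dopamine receptor gene dop-1 had 141, 88.6 and 82.5 TPM in VA neurons and 4.24, 2.66 and 3.28 TPM in whole worms, and the GABA-B subunit gene gbb-1 had 35.1, 46.8 and 8.71 TPM in VA neurons and 1.44, 1.52 and 0.990 TPM in whole worms. None of these overlapped between the groups. Downstream, G protein and second messenger genes were listed in 35 of 71 cases, 34 called by limma, with a median ratio of 6.12. The Gq gene egl-30 had the higher level, 2435, 1107 and 1263 TPM in VA neurons and 640.5, 475 and 436 TPM in whole worms, with a ratio of 3.10, and the Go gene goa-1 the higher ratio, 9.74, with 972, 625 and 585 TPM in VA neurons and 85.1, 72.2 and 66.6 TPM in whole worms. The diacylglycerol kinase gene dgk-1, which opposes Gq signalling, had 53.8, 54.8 and 26.7 TPM in VA neurons and 1.999, 1.78 and 1.35 TPM in whole worms.

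**Figure D4:**
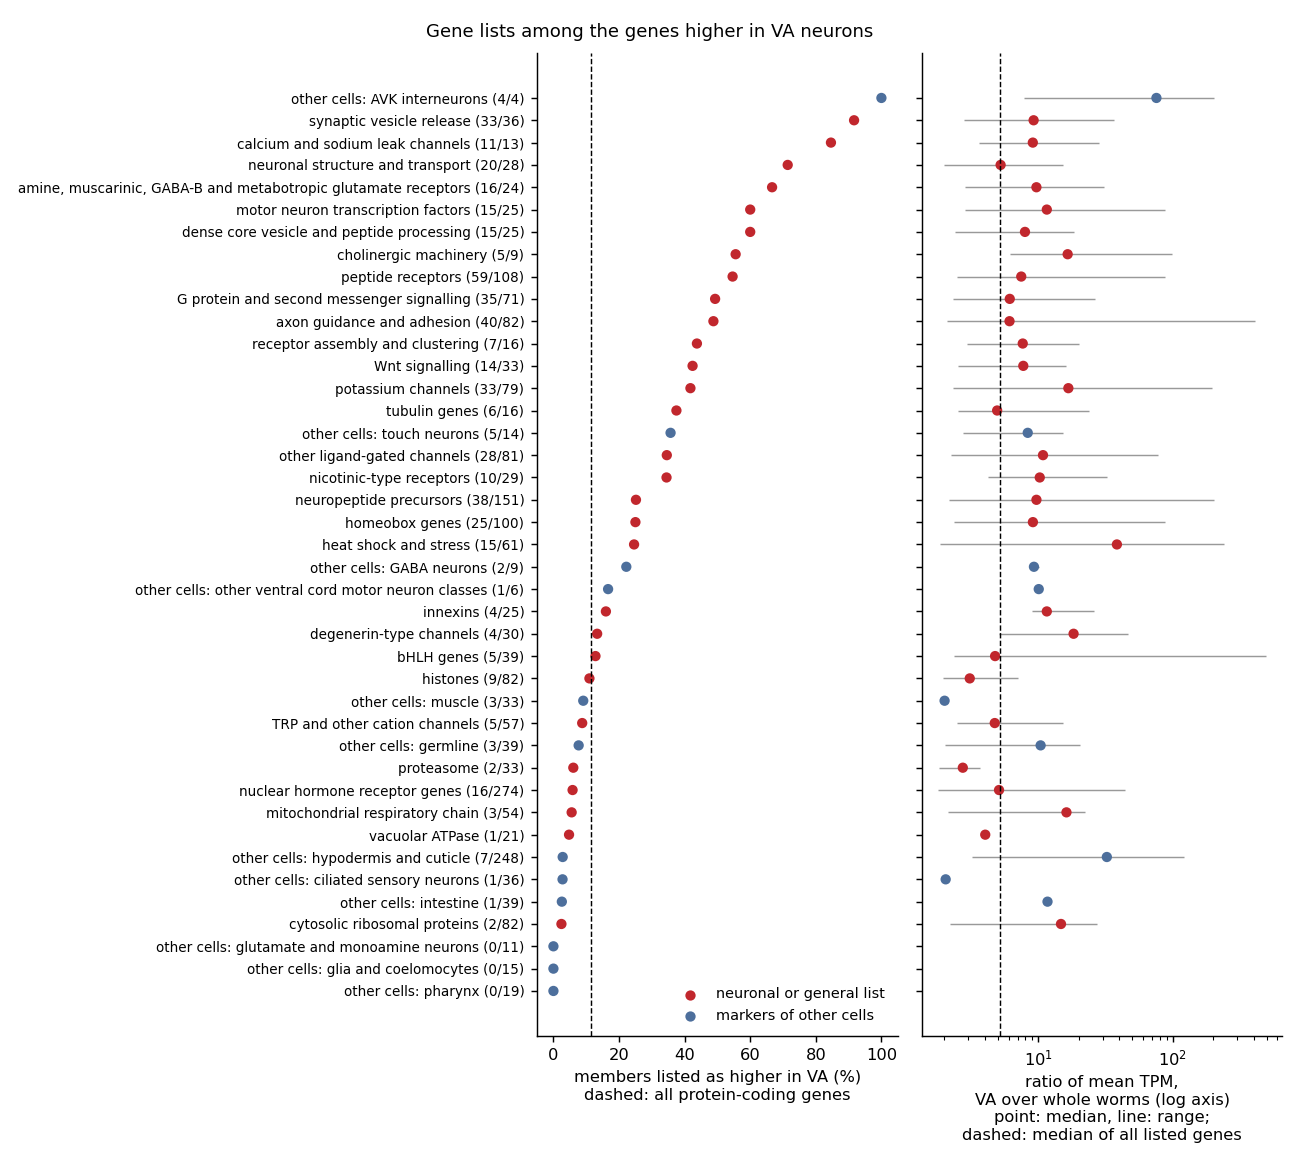
For each gene list (listed over annotated members in brackets), the share of members listed as higher in VA neurons (left, %) and the ratio of mean TPM of VA neurons over whole worms (right, log axis; point for the median, line for the range), with dashed lines at 11.6% of all protein-coding genes and at the median ratio of 5.18. Synaptic vesicle release stands at 91.7% and cytosolic ribosomal proteins at 2.44%.

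Housekeeping machinery was sparse in the table. Of 82 cytosolic ribosomal protein genes 2 were listed, of 54 mitochondrial respiratory chain genes 3, of 33 proteasome genes 2 and of 21 vacuolar ATPase genes 1. The mitochondrial gene ctc-3, for a cytochrome oxidase subunit, had 3292, 3361 and 7040.3 TPM in VA neurons and 1939.8, 1963 and 2488 TPM in whole worms and was not called by limma (adjusted p = 0.069). The V-ATPase subunit gene unc-32, known from neurons, had 329, 225 and 197 TPM in VA neurons and 56.3, 67.97 and 62.2 TPM in whole worms. One exception was the CCT chaperonin, which folds tubulin and actin, and which was singled out after its values were seen. All 8 of its annotated genes were listed, with ratios from 1.86 to 3.67, below the median of 5.18 over all listed genes. In 6 of the 8 every VA library lay above every whole-worm library, against 91.9% of all listed genes. For cct-5 the values were 499.8, 454 and 354 TPM in VA neurons and 193, 111 and 129.99 TPM in whole worms. Whole-worm replicate 2 was the highest of the whole-worm libraries in each of the 8. Histone genes were listed in 9 of 82 cases, near the share of all genes, with a median ratio of 3.09. The linker histone gene his-24 had 2168, 1451 and 3397 TPM in VA neurons and 418, 185 and 396 TPM in whole worms.

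Globins, oxygen-binding proteins of which C. elegans has many, were also singled out after their values were seen, with 15 of 34 genes listed. The most abundant was glb-22, with 417, 330.3 and 274 TPM in VA neurons and 6.27, 2.29 and 4.11 TPM in whole worms, a ratio of 80.7. In contrast, 0 of 240 C-type lectin genes, 0 of 74 cytochrome P450 genes, 0 of 70 mitochondrial ribosomal protein genes and 24 of 1364 chemoreceptor genes (1.76%) were listed. These classes, too, were singled out after their values were seen.

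Markers of cells outside the nervous system gave listed shares from 0 to 9.09%, against 11.6% of all annotated protein-coding genes. None of 19 pharynx genes and none of 15 genes of glia and coelomocytes were listed. Of 39 intestine genes 1 was listed, of 39 germline genes 3 (7.69%), of 33 muscle genes 3 (9.09%) and of 248 genes of hypodermis and cuticle 7 (2.82%). The muscle and germline shares lie near that of all genes. The muscle genes were those of integrin attachments, unc-97, pat-4 and pat-3, with ratios of 2.01, 2.09 and 1.95. None of the defining markers of muscle, such as the myosin genes myo-3 and unc-54, was among them, and levels of unlisted genes are not analysed here. Of the hypodermis and cuticle list, 2 genes of the ground-like class were among the most enriched, grl-8 with 485, 87.4 and 379.7 TPM in VA neurons and 2.73, 2.996 and 2.16 TPM in whole worms, and its neighbour grl-9 with 41.7, 11.4 and 41.2 TPM in VA neurons and 0.751, 1.403 and 0.768 TPM in whole worms. Both were lowest in VA replicate 2.

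Markers of other neuron classes gave a mixed picture. Of 36 genes of ciliated sensory neurons 1 was listed, and none of 11 genes of glutamate and monoamine neurons. Of 9 genes of GABA neurons 2 were listed, the GABA transporter gene snf-11 with 184, 103.98 and 93.001 TPM in VA neurons against 21.03, 11.2 and 12.7 TPM in whole worms, and unc-55. Genes of the touch neurons were listed in 5 of 14 cases, among them mec-7 with 1020.3, 351 and 533 TPM in VA neurons against 192, 166 and 139 TPM in whole worms, while their defining factor mec-3 and channel genes mec-4 and mec-10 were not listed. The 4 genes taken as marks of AVK interneurons, flp-1, nlp-49, unc-42 and fax-1, were all listed, with a summed level of 9.54, 3.15 and 14.9% of TPM in VA libraries against 0.0480, 0.0561 and 0.0547% in whole worms, and with the heat shock list left out 10.1, 4.68 and 15.1% in VA libraries and 0.0481, 0.0562 and 0.0548% in whole worms. The homeobox gene unc-42 had 146, 44.7 and 155 TPM in VA neurons and 15.9, 13.6 and 14.4 TPM in whole worms. The nuclear receptor gene fax-1, which turns on flp-1 in AVK, had 68.7, 13.7 and 38.4 TPM in VA neurons and 2.39, 1.86 and 3.39 TPM in whole worms. All 4 were lowest in VA replicate 2, as was hlh-34, and so were 978 of all 2349 listed genes. These 4 genes were set with the high flp-1 level already known, the labels name VA and AVF neurons for the gate, and the part of other neurons in the flp-1 level was not tested.

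Heat shock genes had a median ratio of 38.4 and spread widely between VA libraries. Of 61 annotated genes of the list 15 were listed, 13 called by limma and 11 with every VA library above every whole-worm library. Over all listed genes these shares were 95.1% of those tested and 91.9%. Summed, they took 5.26, 32.7 and 1.92% of TPM in VA libraries and 0.325, 0.120 and 0.119% in whole worms. VA replicate 2 was the highest VA library in 13 of the 15 and replicate 3 the lowest in all 15. The Hsp70-family gene F44E5.4 (chromosome II, 11757107 to 11759311) had 24731, 198028 and 4765 TPM in VA neurons and 541, 282 and 132 TPM in whole worms. Its ratio was 238, and 46.3 without VA replicate 2. The inducible gene hsp-70 had 388, 2299 and 74.7 TPM in VA neurons and 9.36, 5.05 and 6.67 TPM in whole worms. A small heat shock gene, hsp-16.2, had 841, 3235 and 223 TPM in VA neurons and 52.4, 22.6 and 28.5 TPM in whole worms. Some of the hsp-16 genes, and F44E5.4 with F44E5.5, are near-identical copies, so the split of reads between such copies is uncertain. The VA cells were dissociated and sorted and the whole worms were frozen, so handling and cell type cannot be told apart for this list. With these 15 genes left out of the totals, the median difference over all listed genes was 2.12 on the log2(TPM + 1) scale, against 1.92 with them.

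Spread between VA libraries was uneven across the abundant genes. Among the 486 genes averaging 100 TPM or more in VA neurons, the 10 with the largest coefficient of variation were 6 heat shock genes together with pdf-1, R11A5.3, ttll-12 and C38D9.2. R11A5.3 had 81.3, 843 and 29.5 TPM in VA neurons and 2.71, 2.72 and 3.23 TPM in whole worms, and C38D9.2 had 76.6, 238 and 18.9 TPM in VA neurons and 1.22, 3.32 and 2.23 TPM in whole worms. Both followed the order of the heat shock genes, with replicate 2 highest and replicate 3 lowest. The steadiest 10 included W05B5.1 with 125, 126 and 130.4 TPM in VA neurons and 67.6, 42.1 and 47.4 TPM in whole worms, the cuticlin-like gene cutl-19 with 124, 119.6 and 115.5 TPM in VA neurons and 6.99, 3.90 and 4.301 TPM in whole worms, and zag-1. Also among them were the chromodomain gene cec-1 with 132, 134 and 114 TPM in VA neurons and 63.2, 58.8 and 59.8 TPM in whole worms and the Gs gene gsa-1 with 781, 625 and 676 TPM in VA neurons and 131, 66.6 and 77.2 TPM in whole worms.

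At the lower edge of the table no ratio was below 1, and the 5 lowest lay between 1.70 and 1.77. They were dpt-1, gei-6, the small GTPase gene cdc-42, the splicing factor gene rnp-6 and idhg-1, an isocitrate dehydrogenase subunit gene. For dpt-1 the values were 60.1, 52.9 and 45.2 TPM in VA neurons and 35.7, 29.9 and 27.4 TPM in whole worms, which do not overlap. By limma all 5 were called, with adjusted p from 0.029 to 0.034, and each call was lost without 1 library, with a largest adjusted p of 0.11 to 0.14.

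Listed genes were unevenly placed over the genome. Of the protein-coding genes annotated on each chromosome, 17.6% were listed on X, 14.7% on I, 12.8% on III, 10.9% on II, 9.72% on IV and 7.49% on V, against 11.6% of all. The median ratio was highest on V, at 6.59, and on X, at 6.45. Listed genes also spanned more of the genome, with a median of 3877 bases from start to end against 1900 for protein-coding genes not listed. Of the listed genes 131 overlap another listed gene, in 66 pairs of which 13 lie on 1 strand, and the levels within such pairs are uncertain.

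**Figure D5:**
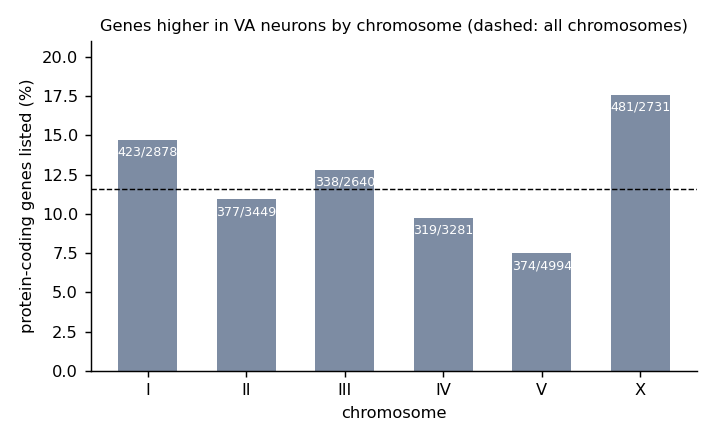
Share of annotated protein-coding genes listed as higher in VA neurons (%) on each nuclear chromosome, with listed over annotated genes inside each bar and a dashed line at 11.6%. Chromosome X has 481 of 2731 genes listed and chromosome V 374 of 4994.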

How the data were processed

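RNA sequencing libraries of sorted wild type VA neurons and of whole L2 worms (3 each) were compared. The authors deposited a table with TPM per library and per group, a fold and a false discovery rate p-value, per the file headers. In the authors' deposited table folds ran from 2.25 to 3009 with a median of 6.94, and the largest p-value was 0.049997. Per the submitters' processing notes reads were placed on build WBcel235; the aligner, counting and test are not given in the sources used here. The rows and lists were chosen with earlier results of these data known.

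Ratios were computed from the TPM columns. They were mostly lower than the authors' folds, with a median of 0.76 for ratio over fold. Differences on log2(TPM + 1) were tested with limma 3.58.1 (R 4.3.3) with its trend option for the 2328 genes averaging 1 TPM or more in a group, and p-values adjusted over them by Benjamini-Hochberg; the fit was tested on simulated data. On this scale the change of low genes is understated. The authors' selection used the same libraries, so adjusted p-values are not independent evidence. With 3 against 3 libraries an exact permutation test of 1 gene cannot go below 0.1 (2-sided). A call or ratio that moved by over 1.5 times without 1 library is given with its values per library. Alternatives were other pseudocounts, no filter, no trend, a replicate block, rescaling without heat shock genes and leaving out each library.

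Of 2349 identifiers 2315 had a current symbol; coordinates are those of Ensembl release 115, in which 2313 are protein coding and 12 have no entry. Named genes were the VA markers, the 25 of highest level, the 20 of highest ratio among genes with at least 10 TPM and the groups apart, genes of at least 10 TPM at 0 in whole worms, from each of 41 gene lists the 4 of highest ratio and the 2 of highest level, the 5 lowest ratios, and the 10 steadiest and 10 most variable genes of at least 100 TPM. The genes mab-5, lin-39, lin-11, unc-37, ast-1, unc-38, unc-63, snt-1, cct-5 and glb-22 were named after their values were seen. So were 23 gene families, of which only some are described. Among them are those said to be singled out and the synaptotagmins.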

Additional observations from a re-analysis of the deposited data

How the results depend on the processing

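The count of 2214 genes called by limma was 2228 with a pseudocount of 0.1, 2172 with a pseudocount of 5, 2218 with no filter, 2221 without the trend, 2228 after rescaling without the heat shock genes, and 1899 to 2247 with 1 library left out. With the replicate number as a block it was 1597; the deviations of the 2 same-numbered pairs correlated at 0.068 and -0.012, so the numbers were not taken to pair the libraries. The share of TPM in listed genes in VA neurons was 42.3% after rescaling without the heat shock genes, against 50.3%, and 46.2 to 54.1% with 1 library left out. The median log2 difference of 1.92 was 2.34 with a pseudocount of 0.1 and 1.36 with a pseudocount of 5, as low values weigh more or less, 1.93 with the filter at 1 TPM (chosen after seeing the data), and 1.74 to 2.01 with 1 library left out. The count of ratios of at least 10 ranged over 612 to 720 with 1 library left out against 688, was 686 from medians and was 780 after rescaling. The count of 2158 genes with the groups apart was 2165 to 2278 with 1 library left out and 2189 after rescaling. Leaving out a library can only keep or raise this count, so that range does not check it.

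For the 188 named genes, 2161 values kept their direction and side of the threshold, 62 values of 23 genes lost a call, 17 values of 10 genes gained one, and 0 changed direction. The block accounted for 23 of the lost calls. Leaving out 1 library moved the ratio by over 1.5 times in 40 named genes. The median has no value of its own without the trend or under the block. A planned search of promoters for the COE motif was not run, since no promoter sequence was at hand. TPM keep no depth, so no counting error or detection floor is given, and the low values of whole worms have unknown precision.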
